A study of Mus musculus with 8 samples.

Results

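The microRNAs miR-193b, miR-365 and miR-378 were followed in CD34+/CD105- cells sorted from the renal artery of mice. The 3 assays were chosen by name, mmu-miR-193b, mmu-miR-365 and hsa-miR-378 without passenger-strand entries, out of 750 distinct miRNA assays measured by real-time PCR. The choice was made with detection patterns and group differences of these mice already known, so their values are given as a description, and no p-value is given for any of them. All 3 names were found, each as 1 assay.

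Cells came from 4 mice after clamping of both renal arteries and reperfusion (ischemia/reperfusion) and from 4 mice after sham surgery. CD34 is carried by endothelium and by blood and vascular progenitors, and CD105, or endoglin, by activated endothelium and mesenchymal stromal cells. The sort kept cells with the first and without the second. Arterial tissue was digested with collagenase before sorting, in either group. Strain, age, clamping time and reperfusion time are unstated in the labels. Endothelial miR-126-3p and miR-126-5p were detected in all 8 mice, and erythroid markers were detected by 0 of 3 assays.

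In mice, miR-193b and miR-365 are known as a clustered pair that is enriched in brown fat. The pair has been reported to act in brown adipocyte differentiation, and miR-193b also represses cell-cycle genes in human tumour cells. miR-378 lies inside Ppargc1b, the gene of PGC-1beta, a coactivator of mitochondrial and lipid-oxidation genes, and in mice both arms of its hairpin counter that programme. The name miR-378 has been used for either arm of the hairpin in successive releases of the nomenclature, and the labels do not say which arm the hsa-miR-378 assay reads.

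The mature sequences show which loci the first pair of assays can read, with the seed (bases 2 to 8) in capitals. They are RefSeq sequences on GRCm38.p6, taken for the 3p arms, to which the names without an arm refer, and the paralog miR-193a-3p is shown because it shares the seed of miR-193b-3p.
mmu-miR-193b-3p: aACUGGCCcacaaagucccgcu
mmu-miR-193a-3p: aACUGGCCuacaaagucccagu
mmu-miR-365-3p: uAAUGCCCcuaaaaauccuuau
Counted from the 5′ end, miR-193a-3p differs from miR-193b-3p by C9U, G20A and C21G, which is 3 of 22 positions, all outside the seed. The seed of miR-365-3p is another one, so the clustered pair shares no seed.

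miR-193b-3p lies at chr16:13449570-13449591 on the plus strand. Its cluster partner, the copy of miR-365-3p in the Mir365-1 hairpin, lies at chr16:13453895-13453916 on the same strand. The hairpins are 4238 bases apart with no other annotated gene wholly between them, and both lie within the spans of the long noncoding RNA genes Gm32817 and Gm53058. A second pair of the same kind stands on chromosome 11, where miR-193a-3p (chr11:79712009-79712030, plus strand) and a copy of miR-365-3p (chr11:79726467-79726488, plus strand) come from hairpins 14365 bases apart. The Mir365-1 and Mir365-2 hairpins are printed with the mature miR-365-3p in capitals, to show that the same 22 bases come out of different precursors.
Mir365-1 hairpin: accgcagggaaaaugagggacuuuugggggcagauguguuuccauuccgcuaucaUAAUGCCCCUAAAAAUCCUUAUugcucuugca
Mir365-2 hairpin: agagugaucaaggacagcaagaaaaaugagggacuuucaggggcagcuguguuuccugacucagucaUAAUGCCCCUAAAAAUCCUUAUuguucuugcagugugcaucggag
An assay of mature miR-365 therefore cannot tell the locus on chromosome 16 from that on chromosome 11, whereas the assays of miR-193b and miR-193a read 1 locus each.

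Readings are threshold cycles (Ct), the PCR cycle at which the signal crosses a fixed level, so a lower Ct means more RNA, and an assay counted as detected below Ct 35. The authors' delta Ct is the Ct minus 1 reference Ct per mouse and assay card. It is given below as minus delta Ct, so that higher values mean more RNA and 1 unit is a doubling under full PCR efficiency. miR-193b and miR-365 were on the same card, miR-378 on the other. The number of miRNA assays detected was between 82 and 98 in the ischemia/reperfusion mice and between 75 and 163 in the sham mice, with the lowest count in sham mouse 2. The reference Ct of the first card was 21.0, 22.4, 20.5 and 21.7 in ischemia/reperfusion mice 1 to 4, and 20.7, 22.4, 19.0 and 17.9 in sham mice 1 to 4. On the second card it was 21.5, 22.6, 21.6 and 21.9 in ischemia/reperfusion mice 1 to 4, and 21.5, 23.0, 20.2 and 18.8 in sham mice 1 to 4. Sham mouse 2 had the latest reference Ct on either card and sham mouse 4 the earliest. Fewer cells of a type and less RNA per cell cannot be told apart in such bulk samples.

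miR-193b was detected in 2 of 4 ischemia/reperfusion mice and in 4 of 4 sham mice. Its Ct was 30.0 in mouse 1 and 31.8 in mouse 3 after ischemia/reperfusion, and mice 2 and 4 had no Ct. In sham mice 1 to 4 its Ct was 29.7, 30.4, 27.6 and 26.8. On the minus delta Ct scale the readings were -9.02 and -11.28 in ischemia/reperfusion mice 1 and 3, against -9.08, -7.92, -8.57 and -8.82 in sham mice 1 to 4. Ischemia/reperfusion mouse 1 thus lay within the sham values and mouse 3 below all of them, while the sham values were close together (-8.60 ± 0.50, SD, n = 4). The difference of the measured wells was -1.55 on the log2 scale, from 2 ischemia/reperfusion and 4 sham wells, and it leaves out the mice without a Ct.

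For miR-193b, ischemia/reperfusion over sham, the fold in the authors' deposited table is 23727. In the deposited delta Ct table, ischemia/reperfusion mice 2 and 4 carry values of -22.4 and -21.7, which equal Ct 0 minus the reference of those mice, although the Ct table has no Ct for these 2 wells. With those wells left out, the fold of the measured wells was 0.341. The direction in the authors' deposited table thus rests on the wells without a Ct.

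miR-365 was detected in 0 of 4 ischemia/reperfusion mice and in 3 of 4 sham mice. After ischemia/reperfusion its Ct was 37.1, 37.3, 36.6 and 39.2 in mice 1 to 4, late readings beyond the detection limit. In sham mice 1, 3 and 4 its Ct was 32.8, 30.1 and 31.1, and sham mouse 2 had no Ct. The readings on the minus delta Ct scale were -16.04, -14.89, -16.03 and -17.49 in ischemia/reperfusion mice 1 to 4, against -12.11, -11.08 and -13.14 in sham mice 1, 3 and 4. The groups of measured wells did not overlap, but sham mouse 2, with no reading at all, stood with the ischemia/reperfusion mice on the undetected side. The difference of the measured wells was -4.0 on the log2 scale, with a pooled SD of 1.05 between mice (4 ischemia/reperfusion and 3 sham wells). This is a fold of 0.0624, also the value that the authors' deposited table holds for miR-365, where no well without a Ct entered.

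**Figure D1:**
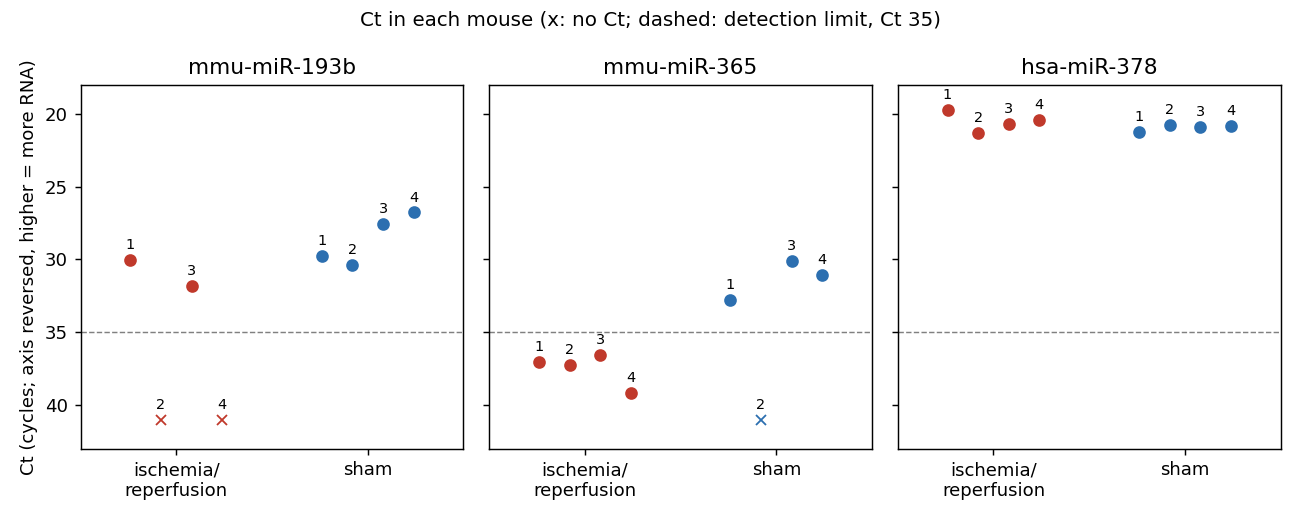
Ct of mmu-miR-193b, mmu-miR-365 and hsa-miR-378 in each mouse, with the mouse number beside each point, the Ct axis reversed so that more RNA is higher, crosses for wells without a Ct and a dashed line at the detection limit of Ct 35. All 4 ischemia/reperfusion readings of mmu-miR-365 lie between Ct 36.6 and 39.2, beyond the limit, and hsa-miR-378 stays between 19.7 and 21.3 in all 8 mice.

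Loss of detection after ischemia/reperfusion was common on these cards. Of the 187 miRNA assays detected in at least 1 mouse, 107 were detected in fewer ischemia/reperfusion than sham mice (57.2%) and 15 in more (8.02%). Of the 111 assays detected in at least 3 sham mice, 39 were detected in at most 2 ischemia/reperfusion mice (35.1%), as miR-193b and miR-365 were, and 9 in none (8.11%), miR-365 among them. Leaving out sham mouse 2 gave the same 9 assays, of 109 detected in the other 3 sham mice. Each of the 9 was undetected in sham mouse 2 as well, so none of them was detected in every sham mouse. Among the 98 assays with a Ct in at least 3 mice of each group, the ischemia/reperfusion values of 10 lay entirely below the sham values (10.2%), again including miR-365, and those of 0 lay entirely above. Since detection in this comparison was among the values behind the choice of the members, nothing is read from their place in these counts.

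The distance between the paired assays needs no reference, because they share a card. The Ct of miR-365 exceeded that of miR-193b by 7.02 and 4.74 cycles in ischemia/reperfusion mice 1 and 3, against 3.03, 2.51 and 4.32 cycles in sham mice 1, 3 and 4. The distance was wider in both ischemia/reperfusion mice than in any of the sham mice where it could be read, from 2 and 3 mice, with the ischemia/reperfusion readings of miR-365 beyond the detection limit. Other pairs of assays were not compared in this way. The members were chosen with group differences known, so nothing is read from this order. The other 3 mice lacked a Ct for 1 of the pair. Of the relatives, the mmu-miR-193 assay (miR-193a) and its passenger strand, mmu-miR-193#, had a Ct in 0 of 8 mice.

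hsa-miR-378 was detected in all 8 mice. Its Ct was 19.7, 21.3, 20.7 and 20.4 in ischemia/reperfusion mice 1 to 4, against 21.3, 20.7, 20.9 and 20.8 in sham mice 1 to 4. The group means were 20.5 ± 0.653 after ischemia/reperfusion and 20.9 ± 0.236 in sham mice (SD, n = 4 each), so the assay gave nearly the same Ct in every mouse. Over the 8 mice its Ct spanned 1.58 cycles, against a median span of 5.23 cycles over the 54 miRNA assays detected in all mice. Of these 54, only mmu-miR-29b# and mmu-miR-106b spanned less, at 1.23 and 1.32 cycles. The reference Ct of the same card spanned 4.21 cycles.

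**Figure D2:**
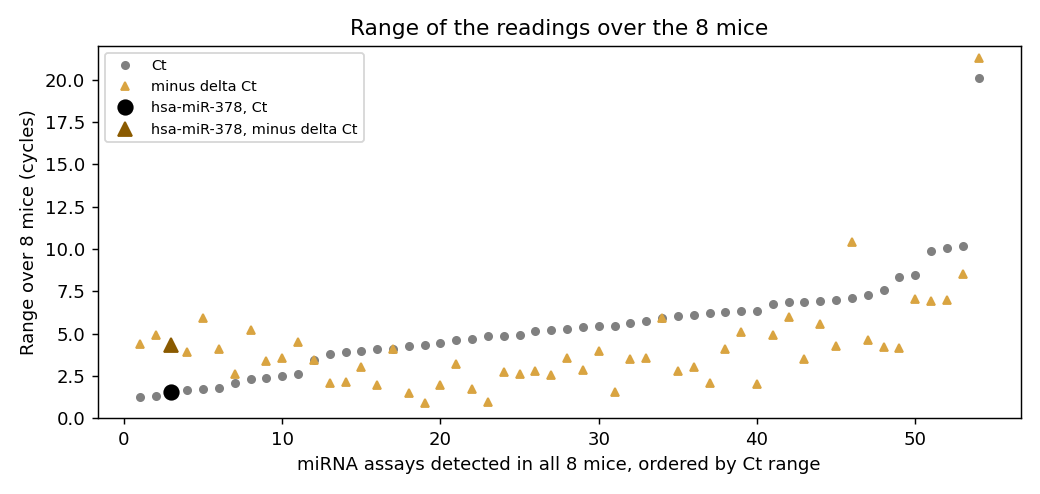
Range over the 8 mice, in cycles, of the Ct (circles) and of minus delta Ct (triangles) for the 54 miRNA assays detected in all mice, ordered by Ct range. hsa-miR-378 stands near the left end, with a Ct range of 1.58 and a minus delta Ct range of 4.31 cycles.

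Subtracting the reference widened the span of hsa-miR-378 to 4.31 cycles. Of the 54 assays, 15 had a wider span after subtraction, against a median span of 3.58 cycles on the minus delta Ct scale. Relative to the reference, hsa-miR-378 was at 1.74, 1.33, 0.93 and 1.5 in ischemia/reperfusion mice 1 to 4, and at 0.20, 2.31, -0.65 and -2.0 in sham mice 1 to 4. The ischemia/reperfusion values lay close together and inside the sham range, with sham mouse 2 above all of them and the other 3 sham mice below. Among the 98 assays with a Ct in at least 3 mice of each group, 27 had all ischemia/reperfusion values inside the sham range (27.6%).

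The mean of hsa-miR-378 was 1.38 ± 0.34 after ischemia/reperfusion and -0.03 ± 1.81 in sham mice (minus delta Ct, SD, n = 4 each). The log2 difference was 1.41 ± 0.89 (limma SE), a fold of 2.66, which is also the value in the authors' deposited table. Of this difference, 0.39 cycles came from the earlier Ct of the assay itself and 1.02 cycles from the later reference Ct after ischemia/reperfusion. Without sham mouse 2, the log2 difference was 2.19. Without sham mouse 4 it was 0.75. Against snoRNA202, a small nucleolar RNA on the same card, the difference was 1.09.

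In the sham mice the order of hsa-miR-378 on the minus delta Ct scale was that of their reference Ct. Mouse 4 was lowest, followed by mice 3, 1 and 2. Minus delta Ct is the reference Ct minus the Ct. The sham Ct lay between 20.7 and 21.3 while the reference ran from 18.8 to 23.0, so this order follows from the subtraction. The ischemia/reperfusion mice, with references closer together, were not in the order of theirs.

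**Figure D3:**
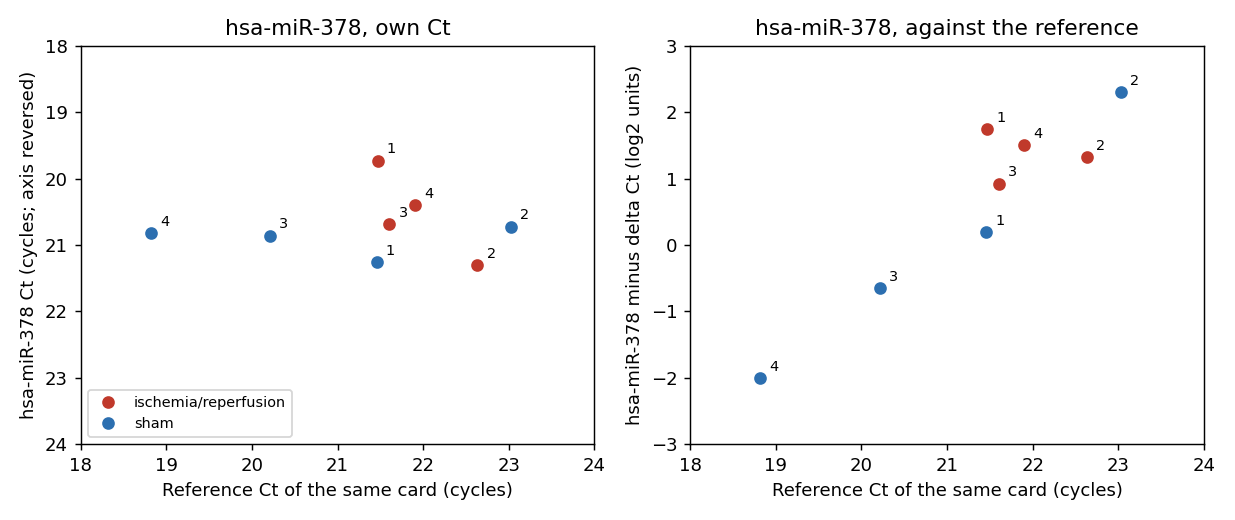
hsa-miR-378 Ct (left, axis reversed) and minus delta Ct (right) against the reference Ct of the same card in cycles, with 1 point per mouse and the mouse number beside it. The Ct stays between 19.7 and 21.3 while the reference runs from 18.8 in sham mouse 4 to 23.0 in sham mouse 2, and the minus delta Ct runs from -2.0 to 2.31 over the same sham mice.

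Across the whole table, 72 miRNAs were detected in at least 3 mice of each group and entered the fit. hsa-miR-378 is among them because the fit takes the whole table, and nothing is read from the test for it. With p-values from limma adjusted by Benjamini-Hochberg, 0 of the 72 passed 0.05 (0%). At an unadjusted p under 0.05, limma gave 10 lower (13.9%) and 0 higher (0%), and an exact permutation test per miRNA gave 2 (mmu-miR-126-3p and mmu-miR-218). The exact test cannot go below 0.0286 with 4 mice per group, and 42 of the 72 would have to reach that value for any to pass after adjustment, so its count of 0 after adjustment says little. The median log2 difference was -0.80, and 23 of the 72 were higher after ischemia/reperfusion (31.9%). hsa-miR-378 had rank 2 from the top among the 72 by log2 difference, after mmu-miR-1894-3p. Group differences were known when the members were chosen, so nothing is read from this rank. miR-193b and miR-365 were not in the fit.

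Likeness of pattern was taken as the root mean square difference between readings centred on their mean, in cycles of minus delta Ct, with smaller values for more similar patterns. Nearest to hsa-miR-378 over 8 mice were mmu-miR-29b# (0.416), mmu-miR-25 (0.551) and mmu-miR-106b (0.565), against a median of 1.91 over 71 tested miRNAs. mmu-miR-25 and mmu-miR-106b are processed from the same primary transcript, inside the gene Mcm7. The assay of mmu-miR-93, which comes from that transcript as well, was detected in 0 of 8 mice. Whether the shared transcript bears on the likeness was not tested. hsa-miR-378 and its nearest assays all have a reference subtracted that is common to their card. mmu-miR-29b# and mmu-miR-106b also had a Ct that hardly varied. The log2 differences of mmu-miR-29b#, mmu-miR-25 and mmu-miR-106b were 0.96 ± 0.90, 1.14 ± 0.76 and 0.90 ± 1.05 (limma SE, n = 4 per group). They were on the same side as hsa-miR-378. That side follows from the choice of these assays by closeness over the same readings, group difference included, so nothing is read from it. Nearest to miR-193b, over the 6 mice in which it was detected, were mmu-miR-126-5p (0.644), mmu-miR-30a (0.658) and mmu-miR-218 (0.675), against a median of 1.44 over 62 miRNAs. This leaves out ischemia/reperfusion mice 2 and 4, where miR-193b had no Ct and these assays did not drop out. There mmu-miR-126-5p was at -6.47 and -6.12, its highest readings of the 8 mice, mmu-miR-30a at -3.93 and -7.11, and mmu-miR-218 at -5.96 and -6.02 (minus delta Ct). Over all mice the log2 differences were 0.11 ± 0.60 for mmu-miR-126-5p, -0.22 ± 0.86 for mmu-miR-30a and -1.89 ± 0.66 for mmu-miR-218 (limma SE, n = 4 per group), beside -1.55 for the measured wells of miR-193b. The likeness thus holds for the mice with a miR-193b reading and was not carried to the others. miR-365 was detected in too few mice for such a comparison.

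A list of 35 miRNAs known from adipocyte, mitochondrial, lipid and glucose metabolism, the members included, sets them beside related regulators. Of the list, 34 names had an assay, 37 assays in all. Of these, 26 were detected in at least 1 mouse, 14 of them in fewer ischemia/reperfusion than sham mice (53.8%, beside 57.2% of all detected assays) and 1, mmu-miR-29b, in more (2 ischemia/reperfusion mice and 1 sham mouse). In ischemia/reperfusion mice 1 to 4, 15, 13, 17 and 16 of the assays were detected, against 22, 13, 22 and 23 in sham mice 1 to 4. The liver miRNA miR-122, the hypoxia-induced miR-210, and miR-103 and miR-107, which act on insulin sensitivity in mice, were detected in 0 of 8 mice. miR-455, which acts in brown fat formation in mice, was detected by its mmu-miR-455 assay in 1 of 4 ischemia/reperfusion mice and 3 of 4 sham mice, and by its hsa-miR-455 assay in none.

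Of the list, 12 members were tested, with 5 higher and 7 lower values after ischemia/reperfusion and a median log2 difference of -0.30, beside -0.80 over all 72. With the mean Ct of always-detected miRNAs as reference, the medians were 0.36 for the list and -0.31 for all tested miRNAs, and at a detection limit of Ct 32 they were 0.11 and -0.36. The sign of the list's median thus turns with the reference and with the detection limit. hsa-miR-378 had the highest value of the 12, from which nothing is read either, as it was chosen with group differences known. hsa-miR-196a, which acts in brown adipocyte formation from white fat progenitors, had a log2 difference of -2.10 ± 0.85 (limma SE, 3 mice per group). mmu-miR-26b was at -2.98 ± 1.70 (3 ischemia/reperfusion and 4 sham mice) and its relative mmu-miR-26a at -1.11 ± 0.65, both known from human adipocyte differentiation. mmu-miR-29c (-1.07 ± 0.87), mmu-miR-30b (-0.79 ± 0.68), mmu-miR-29a (-0.36 ± 0.68) and mmu-miR-30c (-0.24 ± 0.57) also had lower values. Those of mmu-miR-29a and mmu-miR-30c lay within 1 SE of 0. mmu-miR-106b (0.90 ± 1.05), mmu-miR-125b-5p (0.24 ± 0.77), mmu-miR-155 (0.23 ± 0.66) and mmu-miR-328 (0.11 ± 0.79) had higher values, each within 1 SE of 0.

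**Figure D4:**
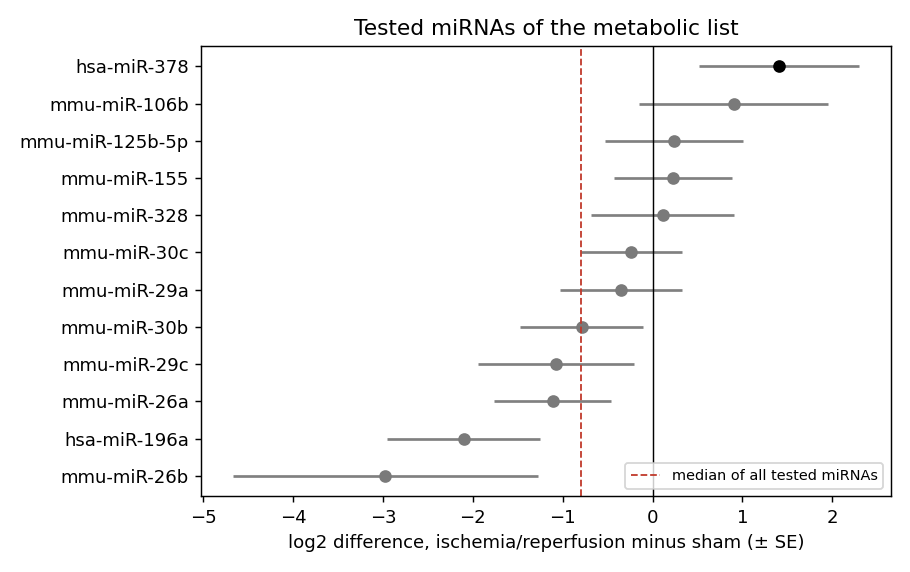
Log2 difference, ischemia/reperfusion minus sham, with its limma standard error for the 12 tested miRNAs of the metabolic list, and a dashed line at the median of all 72 tested miRNAs, -0.80. hsa-miR-378, in black, has the highest value at 1.41 and mmu-miR-26b the lowest at -2.98.

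Because miR-378 is also abundant in muscle, markers of cells that could accompany the sort were counted. Of 7 striated muscle assays, 2 were detected, hsa-miR-206 in 2 of 4 ischemia/reperfusion and 4 of 4 sham mice and mmu-miR-133a in 0 of 4 ischemia/reperfusion and 1 of 4 sham mice, and miR-1, miR-133b, miR-208b and miR-499 in none. Of 11 tubule and epithelial assays, 3 were detected, with 0, 1, 1 and 0 in ischemia/reperfusion mice 1 to 4 and 1, 0, 2 and 3 in sham mice 1 to 4. Sham mice 3 and 4 had the highest counts of these assays and of all detected assays (142 and 163). They also had the lowest Ct of miR-193b and miR-365, and the earliest reference Ct on that card (19.0 and 17.9). On the minus delta Ct scale miR-193b was instead highest in sham mouse 2 (-7.92). miR-365 was highest in sham mouse 3 (-11.08), but its reading in sham mouse 4 (-13.14) was the lowest of the sham readings. Leukocyte markers were detected by 4 of 5 assays, with 3 or 4 in every mouse of either group. Of 5 fibroblast and mesenchymal assays, 4, 3, 3 and 3 were detected in ischemia/reperfusion mice 1 to 4, against 3, 2, 4 and 4 in sham mice 1 to 4. Their levels differed more than these counts, with log2 differences of -3.95 ± 1.17 for mmu-miR-214 (4 ischemia/reperfusion and 3 sham mice), -2.65 ± 0.92 for mmu-miR-199a-3p and -0.86 ± 0.87 for hsa-miR-214 (limma SE). Of the smooth muscle assays, mmu-miR-145 was at -2.09 ± 0.84, mmu-miR-143 was detected in 0 of 4 ischemia/reperfusion and 2 of 4 sham mice, and hsa-miR-143 in 1 of 4 ischemia/reperfusion and 2 of 4 sham mice. Endothelial mmu-miR-126-3p was at -1.59 ± 0.57 and mmu-miR-126-5p at 0.11 ± 0.60. Leukocyte hsa-miR-223 was at 1.15 ± 1.13, mmu-miR-223 at 0.63 ± 1.00 and mmu-miR-150 at -1.62 ± 2.00. These mesenchymal, smooth muscle and endothelial assays thus had mostly lower values after ischemia/reperfusion, as miR-193b and miR-365 did. Lower values were also the rule among all tested miRNAs, with 49 of 72 lower and a median of -0.80. None of the tested marker assays passed the adjusted limma threshold. The part of other cell types in the values of the members was not tested.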

How the data were processed

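Ct values were read on a 7900HT Fast real-time PCR instrument with FAM-labelled probes after mirVana isolation, per the labels' protocols. The deposited delta Ct (log2 scale) equalled Ct minus 1 reference per mouse and card within 7.11e-15 cycles, and the labels do not name the reference RNA. The authors' fold change is a ratio, 2 to the power of mean sham minus mean ischemia/reperfusion delta Ct, per the file headers. In 13 wells of 9 assays the deposited delta Ct had no Ct behind it, and these were treated as missing. Catalogue numbers gave 2 cards of 375 miRNA assays, and 7 control assays were not tested. Repeated wells were averaged. A miRNA was tested if detected below Ct 35 in at least 3 mice per group, with limma 3.58.1 in R 4.3.3, two-sided, checked on simulated data. Groups follow the labels, which number separate mice. Named miRNAs are the members, their relatives, the tested list members, the 3 nearest in pattern, and markers. Members and lists were chosen with earlier results of these data known. Sequences and neighbouring genes are from RefSeq on GRCm38.p6, where the miR-193b, miR-193a and miR-365 assays matched by name. Precision is that of 4 mice per group.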

Additional observations from a re-analysis of the deposited data

How the results depend on the processing

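The log2 difference of hsa-miR-378 was between 0.39 without normalization and 2.19 without sham mouse 2. The detection limit, the Ct for wells not detected and the kind of fit could not change it, since every well was at Ct 21.3 or below. Its limma SE was between 0.85 and 1.17 in the fits of all mice, and its ischemia/reperfusion values lay inside the sham range. miR-193b, at -1.55, was at -0.66 with the mean Ct of always-detected miRNAs as reference and -2.32 without normalization, at -2.97 with Ct 35 and -5.47 with Ct 40 in wells not detected, at 14.53 with the Ct 0 wells kept, and between -2.69 and -0.42 when a mouse was left out (without ischemia/reperfusion mouse 1 or 3, which leaves 1 well). miR-365, at -4.0, was at -3.41 with the mean Ct of always-detected miRNAs as reference, -4.78 against snoRNA202 and -6.21 without normalization. It was at -1.38 with Ct 35 and -5.13 with Ct 40 in wells not detected. At Ct 32 it had no ischemia/reperfusion well and no value. The count of 0 miRNAs past the limma threshold was 1 (hsa-miR-421) with every Ct kept or with Ct 35 or 40 in wells not detected, and 0 to 1 when a mouse was left out (mmu-miR-1896 without sham mouse 1, mmu-miR-199a-3p without sham mouse 2). The median of all tested miRNAs was -0.31 with the mean Ct of always-detected miRNAs as reference, -1.93 without normalization and -1.54 with Ct 40, and that of the metabolic list 0.36, -1.69 and -1.39, and -0.98 against snoRNA202. As a reference, snoRNA202 was read on the card of hsa-miR-378 only and was subtracted on both cards, and most tested list assays were on the other card. The list's median was 0.11 at a detection limit of Ct 32 and between -0.54 and -0.04 when a mouse was left out. Mouse numbers did not pair the mice: same-numbered deviations correlated at -0.38, -0.15, 0.020 and -0.25. The replicate block gave 0 calls. In the block fit the difference of hsa-miR-378 was 1.41 with a limma SE of 0.85, and a block cannot change that difference when every mouse has a reading. miR-193b and miR-365 were outside that fit. No single mouse stood apart by Dixon's test in 12 groups of 4 member or reference readings. Groups this small give that test little power, and single mice did move hsa-miR-378, to 2.19 without sham mouse 2 and 0.75 without sham mouse 4. Signal limits miR-193b and miR-365, whose differences depend on the Ct given to wells not detected and on the reference.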
